A study of Mus musculus with 6 samples.

Results

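The insulin and IGF axis genes described here are 10 liver transcripts, Insr, Irs1, Irs2, Foxo1, Igf1, Igfals, Igfbp1, Igfbp2, Igfbp3 and Igfbp4, taken by gene symbol from the 22599 genes of the deposited tables. All 10 were found, and all 10 passed the filter on low counts that left 13205 genes for testing. RNA was measured by bulk RNA sequencing of mouse liver in 6 libraries. The 3 flox libraries came from NcoR1fl/fl mice, whose genotype label is WT. The 3 NcoR1ΔHep libraries carry the genotype label knockdown NcoR1. All 6 titles read 0 h, yet liver ischemia-reperfusion is also entered as the treatment of all 6, so it is not known whether surgery preceded collection. Mice had chow and water without restriction. The sources used here give no Cre driver, age, sex, hour of collection or time since the last meal. Nothing in the labels ties the libraries to separate mice, and the p-values below therefore reflect only the spread among these libraries, which may in part be technical. Values of a group are listed in the order of replicates 1, 2 and 3.

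Insulin acts on hepatocytes through its receptor, encoded by Insr, which phosphorylates the adaptor proteins IRS1 and IRS2. These recruit PI3-kinase and activate AKT, and AKT keeps the transcription factor FOXO1 out of the nucleus. In the fasted liver FOXO1 returns to the nucleus and raises genes such as Igfbp1 and Irs2, while growth hormone acting through its receptor and STAT5 drives hepatic Igf1 and Igfals. IGF-1 circulates bound to IGF binding proteins, chiefly in a complex of IGF-1, IGFBP-3 and the acid-labile subunit encoded by Igfals.

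Stretches before the transcription starts of Igfbp1, Irs2 and Irs1 are shown because the insulin response element of Igfbp1 is the textbook site at which FOXO1 acts in this axis, and because Igfbp1 and Irs2 had the widest ranges over the libraries. Sequences are RefSeq's on GRCm38.p6, 5′ to 3′ on the gene's strand, the 130 bases that end just before the start. Capitals mark the 7-base insulin response element core CAAAACA, or TGTTTTG where it lies on the other strand.
Igfbp1, chr11:7197657-7197786, plus strand: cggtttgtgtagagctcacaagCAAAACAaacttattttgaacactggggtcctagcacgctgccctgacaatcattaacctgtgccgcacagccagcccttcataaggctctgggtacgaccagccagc
Irs2, chr8:11008930-11009059, minus strand: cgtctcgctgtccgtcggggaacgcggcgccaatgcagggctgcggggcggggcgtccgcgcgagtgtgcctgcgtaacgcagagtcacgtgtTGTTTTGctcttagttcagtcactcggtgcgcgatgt
Irs1, chr1:82291440-82291569, minus strand: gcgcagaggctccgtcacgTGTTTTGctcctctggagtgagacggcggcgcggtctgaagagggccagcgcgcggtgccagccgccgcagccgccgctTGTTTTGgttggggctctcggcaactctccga

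Of the 10 genes, 9 had a promoter entry in the RefSeq table (all but Insr), with 12 start sites in all. In the 250 bases before those starts, CAAAACA stood on either strand in 3 genes. Igfbp1 held it 108 to 102 bases before the start, Irs2 held it 37 to 31 bases before, and Irs1 held it at 111 to 105 and at 32 to 26 bases before. The same 7 letters stood in 5.56% of the 32851 promoter windows of equal length in the table. The forkhead motif GTAAACA, searched on both strands, stood in 1 of the 9 genes, Igfals, at 242 to 236 bases before 1 of its 3 starts, and in 3.17% of all windows. As spelled, no run of 7 bases can match both motifs. A match is a run of letters and does not show binding.

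Before the results, 3 facts on the libraries matter. Total counts ran from 36975231 to 38470468 per library. Ncor1, the targeted gene, was at 6.78, 6.70 and 7.72 FPKM across flox and at 5.34, 6.63 and 4.93 FPKM across NcoR1ΔHep, a log2 fold change of -0.31 (SE 0.21, edgeR adjusted p = 0.931), so the genotypes rest on the labels. FPKM is the authors' fragment count scaled by gene length in kilobases and by library total. NcoR1ΔHep 1 had 17138 counts of Xist against 6 to 18 in the other libraries, and 12 counts of the Y-linked gene Ddx3y against at least 2008. It also stood apart in sex-biased liver genes: 17 female-biased genes summed to 6097 CPM against 325 to 1426 in the others, and 13 male-biased genes to 3832 CPM against 11041 to 16591. It therefore stands apart in sex-linked and sex-biased transcripts, and the comparison of the genotypes is given with and without it. Markers of hepatocytes, Alb among them, were the bulk of the marker signal in each library, with 112725 to 131015 CPM summed over 9 genes. The insulin genes Ins1 and Ins2 were not analysed here.

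No gene of the axis differed between the genotypes beyond the spread of the libraries. By edgeR's quasi-likelihood test with Benjamini-Hochberg adjustment over all 13205 genes, 0 of the 10 genes passed 0.05, where 0% of all tested genes passed. An unadjusted edgeR p under 0.05 was reached by 0 of the 10, against 3.35% of all tested genes (1.43% higher and 1.92% lower in NcoR1ΔHep). DESeq2 called 0 of the 10, against 0.0246% of its 20289 genes, and limma-voom called 0. The groups overlapped in CPM for each of the 10 genes, whereas 8.82% of all tested genes had groups that did not overlap (3.29% higher and 5.53% lower in NcoR1ΔHep). Fold changes below compare NcoR1ΔHep with flox on the log2 scale. All 10 were above 0, with a median of 0.12 against 0.03 for all tested genes, of which 53.5% were above 0. That count did not hold: 6 of the 10 were above 0 with limma-voom, with limma on FPKM and without NcoR1ΔHep 2, and 9 were above 0 without NcoR1ΔHep 1.

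**Figure D1:**
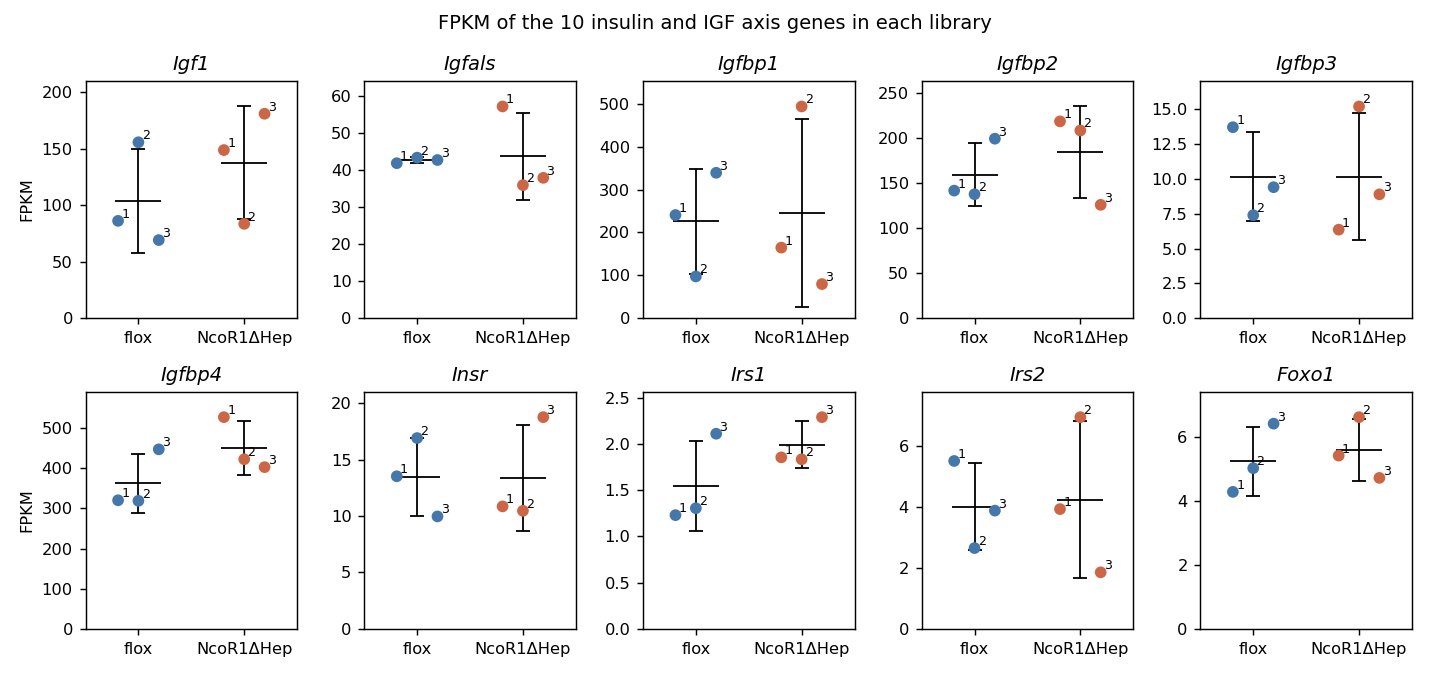
Level in FPKM (vertical axes, each starting at 0) of the 10 genes in the 3 flox libraries (blue) and the 3 NcoR1ΔHep libraries (orange), with replicate numbers beside the points, horizontal bars for the means and whiskers for the SD (n = 3). The groups overlap in each panel, and the spread within a group is widest for Igfbp1, from 97.4 to 339 FPKM in flox and from 79.6 to 494 FPKM in NcoR1ΔHep.

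Per kilobase, the binding protein genes Igfbp4, Igfbp1 and Igfbp2 had the highest means of the axis in these livers, and Igfbp3 was far lower. Over the 6 libraries the mean levels were 407 ± 79.5 FPKM for Igfbp4, 236 ± 159 for Igfbp1, 172 ± 41.2 for Igfbp2 and 121 ± 46.6 for Igf1 (SD, n = 6). Igfals followed with 43.2 ± 7.47 FPKM, Insr with 13.4 ± 3.69, Igfbp3 with 10.2 ± 3.53, Foxo1 with 5.41 ± 0.935, Irs2 with 4.13 ± 1.86 and Irs1 with 1.77 ± 0.425. Some neighbours in this order were clearly apart. Igf1 exceeded Igfals, Igfals exceeded Insr, and Igfbp3 exceeded Foxo1 in 6 of 6 libraries. Others were not. Igfbp1 exceeded Igfbp2 in 3 of 6 libraries, Igfbp2 exceeded Igf1 in 4, Insr exceeded Igfbp3 in 4, and Foxo1 exceeded Irs2 in 4. Igfbp4 exceeded Igfbp1 in 5 libraries, and Irs2 exceeded Irs1 in 5.

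Among the ligand and its partners, Igf1 encodes IGF-1, the growth factor that the liver secretes under growth hormone. Igf1 was at 86.1, 156 and 69.1 FPKM across flox, and at 149, 83.5 and 181 FPKM across NcoR1ΔHep. The libraries fell into 3 low values (flox 1, flox 3 and NcoR1ΔHep 2) and 3 high values (flox 2, NcoR1ΔHep 1 and NcoR1ΔHep 3), a division that crosses the genotypes. The log2 fold change of Igf1 was 0.42 (SE 0.44, 95% interval -0.58 to 1.43, edgeR adjusted p = 0.931). It was 0.93 without flox 2 and 0.07 without NcoR1ΔHep 3.

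Igfals encodes the acid-labile subunit that holds IGF-1 and IGFBP-3 in the circulating complex. Igfals was at 41.9, 43.4 and 42.7 FPKM across flox and at 57.2, 36.0 and 37.9 FPKM in NcoR1ΔHep. In FPKM the 3 flox libraries were close together (42.7 ± 0.755), with NcoR1ΔHep 1 above them and the other two NcoR1ΔHep libraries below. With TMM scaling that order did not hold: as differences from the mean of log2(CPM + 1), Igfals was at -0.18, 0.12 and 0.02 across flox and at 0.32, -0.26 and -0.02 across NcoR1ΔHep. The log2 fold change was 0.04 (SE 0.23, 95% interval -0.48 to 0.56, edgeR adjusted p = 0.988), and -0.11 without NcoR1ΔHep 1.

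Of the binding proteins, Igfbp1 encodes the one that insulin acutely represses in liver. Igfbp1 was at 241, 97.4 and 339 FPKM across flox, and at 165, 494 and 79.6 FPKM across NcoR1ΔHep. The highest library, NcoR1ΔHep 2, and the lowest, NcoR1ΔHep 3, were of the same genotype and 6.20-fold apart. The means were 226 ± 122 FPKM in flox and 246 ± 219 in NcoR1ΔHep, with a log2 fold change of 0.13 (SE 0.65, 95% interval -1.35 to 1.62, edgeR adjusted p = 0.987). Leaving out NcoR1ΔHep 2 turned the fold change to -0.88. The interval spans more than a doubling in either direction, so a change of that size in Igfbp1 was not detectable here.

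Igfbp2 encodes a binding protein that hepatocytes secrete. It was at 142, 138 and 199 FPKM across flox and at 219, 208 and 126 FPKM in NcoR1ΔHep, so that flox 3, NcoR1ΔHep 1 and NcoR1ΔHep 2 were high and the other 3 libraries low (log2 fold change 0.20, SE 0.27, edgeR adjusted p = 0.943). The fold change of Igfbp2 was 0.076 without flox 1, 0.11 without NcoR1ΔHep 2 and 0.41 without flox 3. Igfbp4 encodes a binding protein that inhibits IGF action. It was at 320, 319 and 447 FPKM across flox and at 527, 423 and 403 FPKM in NcoR1ΔHep. Of the 6 libraries only flox 3 broke the order in which NcoR1ΔHep lay above flox, and the log2 fold change was 0.32 (SE 0.26, 95% interval -0.27 to 0.92, edgeR adjusted p = 0.931). It was 0.20 without flox 1 and 0.52 without flox 3.

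Igfbp3 encodes the main carrier of IGF-1 in plasma. It was at 13.7, 7.39 and 9.40 FPKM across flox and at 6.36, 15.2 and 8.89 FPKM in NcoR1ΔHep. Both groups held 1 high library, flox 1 and NcoR1ΔHep 2 (log2 fold change 0.05, SE 0.35, edgeR adjusted p = 0.992), and the fold change was -0.33 without NcoR1ΔHep 2. Igfbp3 is known to be made in liver largely by cells other than hepatocytes, so marker levels are given beside it. Markers of sinusoidal endothelial cells summed to 738, 291 and 374 CPM in flox and to 406, 241 and 203 CPM in NcoR1ΔHep, and 15 of 15 had log2 fold changes below 0 (median -0.65, or -1.02 without NcoR1ΔHep 1). Of the 15, 3 had an unadjusted edgeR p under 0.05, against 3.35% of all tested genes, and 8 did without NcoR1ΔHep 1, against 2.38%. In both fits 0 were called. In the sums flox 1 was far above the other libraries, and NcoR1ΔHep 1 lay above flox 2 and flox 3. No fit without flox 1 is given for these markers. Endothelial markers were lowest in NcoR1ΔHep 2 and NcoR1ΔHep 3, of which NcoR1ΔHep 2 had the highest Igfbp3. Markers of Kupffer cells summed to 611, 391 and 603 CPM in flox and to 417, 635 and 249 CPM in NcoR1ΔHep. Markers of stellate cells summed to 551, 423 and 419 CPM in flox and to 632, 640 and 480 CPM in NcoR1ΔHep. Both sums were highest in NcoR1ΔHep 2. Next came flox 1 for Kupffer cells, and for stellate cells NcoR1ΔHep 1, which was lowest in Igfbp3. The part of these cell types in the Igfbp3 values was not tested. In bulk tissue, fewer cells of a type and less RNA per cell cannot be told apart.

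On the receiving side, Insr encodes the insulin receptor. It was at 13.5, 16.9 and 9.96 FPKM across flox and at 10.8, 10.5 and 18.8 FPKM in NcoR1ΔHep. NcoR1ΔHep 3 and flox 2 were the highest and flox 3 the lowest. The log2 fold change was 0.03 (SE 0.35, 95% interval -0.78 to 0.84, edgeR adjusted p = 0.992), and -0.40 without NcoR1ΔHep 3.

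Irs1 and Irs2 encode the adaptors that carry the signal on from the receptor. Irs1 was at 1.23, 1.30 and 2.11 FPKM across flox and at 1.86, 1.83 and 2.29 FPKM in NcoR1ΔHep, with flox 3 alone of its group among the NcoR1ΔHep values (log2 fold change 0.39, SE 0.29, 95% interval -0.29 to 1.06, edgeR adjusted p = 0.931). Without NcoR1ΔHep 3 the fold change of Irs1 was 0.19. Without flox 3 it was 0.69 and its unadjusted edgeR p was 0.0417, with an adjusted p of 0.800. Irs2 was at 5.52, 2.66 and 3.89 FPKM across flox and at 3.94, 6.96 and 1.86 FPKM in NcoR1ΔHep. As for Igfbp1, NcoR1ΔHep 2 was the highest and NcoR1ΔHep 3 the lowest (log2 fold change of Irs2 0.10, SE 0.42, edgeR adjusted p = 0.986; -0.45 without NcoR1ΔHep 2). The ratio of Irs2 to Irs1 in FPKM was 4.48, 2.03 and 1.84 in flox and 2.12, 3.79 and 0.811 in NcoR1ΔHep, so that NcoR1ΔHep 3 was the only library with more Irs1 than Irs2.

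Foxo1, which encodes the transcription factor that insulin restrains, was at 4.28, 5.02 and 6.42 FPKM across flox and at 5.42, 6.62 and 4.72 FPKM in NcoR1ΔHep. The groups overlapped in part, with NcoR1ΔHep 2 highest and flox 1 lowest, and the log2 fold change was 0.10 (SE 0.25, 95% interval -0.47 to 0.66, edgeR adjusted p = 0.973). RNA levels do not show where the FOXO1 protein is.

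**Figure D2:**
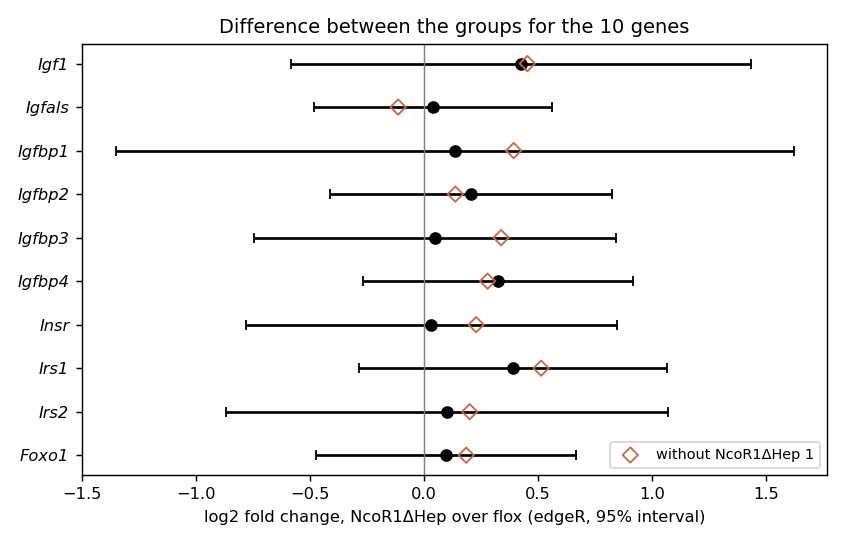
Log2 fold change of NcoR1ΔHep over flox by edgeR (horizontal axis, black points) with 95% intervals for the 10 genes (vertical axis), and the same value without NcoR1ΔHep 1 (open diamonds). Each interval includes 0, the widest being that of Igfbp1 from -1.35 to 1.62 and the narrowest that of Igfals from -0.48 to 0.56.

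Several genes of the axis varied widely over the 6 libraries. The range of log2(CPM + 1) over the 6 libraries, with CPM scaled by TMM factors, was 2.45 for Igfbp1, 1.67 for Irs2 and 1.51 for Igf1. Among 9063 tested genes with a mean of at least 1 FPKM, the median range was 0.82, and 97.3% of these genes had a smaller range than Igfbp1, 91.3% a smaller range than Irs2 and 88.1% a smaller range than Igf1. Igfals had a range of 0.59, which exceeded that of 27.1% of the genes. The pooled SD within groups was 1.08 for Igfbp1 and 0.23 for Igfals on the same log2 scale.

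The ratio of Igfbp1 to Igf1 brings this out. In FPKM it was 2.79, 0.625 and 4.91 in flox 1, flox 2 and flox 3, and 1.11, 5.92 and 0.440 in NcoR1ΔHep 1, NcoR1ΔHep 2 and NcoR1ΔHep 3. Igfbp1 transcripts outnumbered Igf1 transcripts per kilobase in 4 libraries and were fewer in flox 2 and NcoR1ΔHep 3. The group means were 2.78 ± 2.14 in flox and 2.49 ± 2.99 in NcoR1ΔHep (SD, n = 3 each, exact two-sided permutation p = 0.9, where 3 against 3 libraries cannot go below 0.1). The 3 libraries with the highest Igfbp1 were the 3 with the lowest Igf1.

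**Figure D3:**
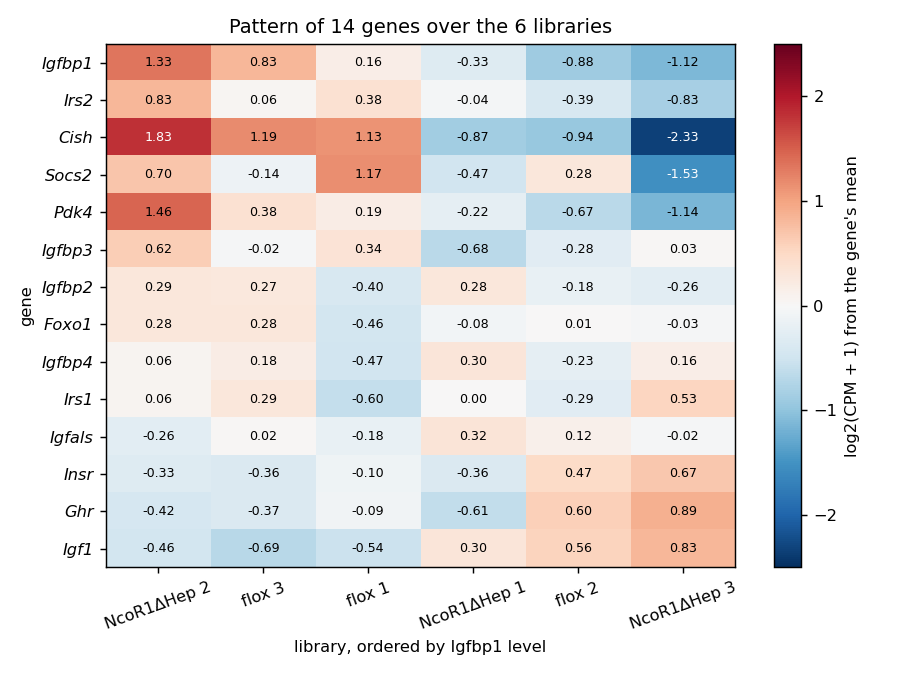
Log2(CPM + 1) of 14 genes (rows) as the difference from each gene's mean over the 6 libraries (columns, ordered by Igfbp1), red above and blue below the mean. Igfbp1, Irs2, Cish and Pdk4 are highest in NcoR1ΔHep 2 and lowest in NcoR1ΔHep 3, where Igf1, Ghr and Insr are at their highest. Pdk4 was picked for its likeness to Igfbp1 over these same libraries, so its likeness to Igfbp1 is no separate result.

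Relations between the 10 genes were computed for all 45 pairs over the 6 libraries on the log2(CPM + 1) scale, and none passed after adjustment over the 45. Before adjustment, 5 pairs had an exact permutation p of Pearson's r under 0.05, some of them with Igf1. Irs1 went with Igfbp4 with Pearson's r = 0.83 (exact permutation p = 0.0333, adjusted p = 0.338) and Spearman's rho = 0.60 (exact permutation p = 0.242). Irs2 went with Igfbp1 with Pearson's r = 0.90 (exact permutation p = 0.0153, adjusted p = 0.338) and Spearman's rho = 0.94 (exact permutation p = 0.0167, adjusted p = 0.375). Without the 2 libraries farthest from the median of Irs2, NcoR1ΔHep 2 and NcoR1ΔHep 3, r was 0.68. Igfals and Igfbp3, partners in the circulating complex, ran in opposite order, with r = -0.997 and rho = -1 (exact permutation p = 0.00139, the smallest that 6 libraries give, and p = 0.00278, with adjusted p = 0.0625 and 0.125). Without NcoR1ΔHep 1 and NcoR1ΔHep 2 the r of Igfals and Igfbp3 was -0.995. That relation depended on the scaling: on log2(FPKM + 1), chosen after the data were seen, r was -0.73 and rho -0.83 (exact permutation p = 0.0681 and 0.0583, adjusted p = 0.420 and 0.518). With Igf1 in separate high and low groups of libraries, no pooled correlation is given for it. With 3 libraries, a genotype is too small for a value of its own.

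**Figure D4:**
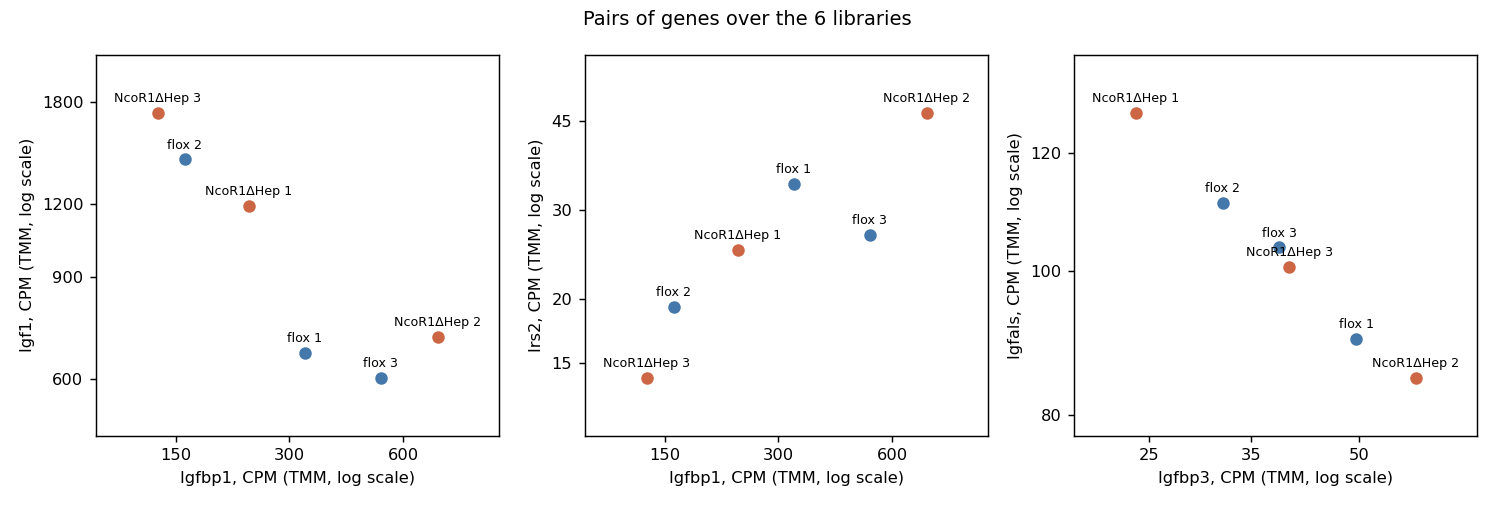
CPM with TMM scaling, on log axes, of Igf1 and of Irs2 against Igfbp1 and of Igfals against Igfbp3, 1 point per library (flox blue, NcoR1ΔHep orange). Igf1 is split into 3 high and 3 low libraries, Irs2 is higher where Igfbp1 is higher except that flox 1 and flox 3 trade places, and Igfals falls in each step as Igfbp3 grows.

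The genes whose patterns lay closest to the 3 most variable members were found by the root mean square difference of centred log2(CPM + 1) over the 6 libraries, among 9062 genes. For Igfbp1 these were Pdk4 with a difference of 0.21, Chac1 with 0.22 and Ccn2 with 0.33, where the median gene was at 0.91. Pdk4 encodes the kinase that shuts down pyruvate dehydrogenase in fasting. Pdk4 was at 16.7, 7.64 and 17.0 FPKM across flox and at 12.1, 37.2 and 5.25 FPKM in NcoR1ΔHep. For Irs2 the closest included Mfge8 (0.15) and Clec12a (0.17), with the median gene at 0.60. For Igf1 they were C1d (0.09), Sult1b1 (0.11) and Tceal8 (0.13), with the median gene at 0.65.

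Marker levels of macrophages moved in part with the Igfbp1 pattern. The 12 markers of Kupffer cells summed to 611, 391 and 603 CPM in flox 1, flox 2 and flox 3 and to 417, 635 and 249 CPM in NcoR1ΔHep 1, NcoR1ΔHep 2 and NcoR1ΔHep 3. The 3 libraries with the highest Igfbp1 had the 3 highest sums, and NcoR1ΔHep 3 was lowest in both. In the mean over the markers of centred log2(CPM + 1), NcoR1ΔHep 1 (-0.29) lay below flox 2 (-0.10), unlike in Igfbp1. The defining marker Clec4f (singled out with its values known) stood at 42.5, 27.5 and 39.5 FPKM across flox and at 32.8, 37.7 and 17.5 FPKM in NcoR1ΔHep, and was at 0 in none. Their part in the Igfbp1 pattern was not tested.

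The other genes of the pathway were described by 5 lists that together hold 115 genes, of which 105 were tested. By edgeR 0 of the 105 were called, and 7 (6.67%) had an unadjusted p under 0.05, against 3.35% of all tested genes. DESeq2 called 0. The groups did not overlap in 8 of the 105 (7.62%), against 8.82% of all tested genes. The count of list genes with an unadjusted edgeR p under 0.05 was 0 without flox 1, 3 without flox 2 and 16 without flox 3. The share with such a p over all tested genes moved in the same direction, with 0.742%, 2.64% and 5.46% in those fits. A move in this direction is therefore not particular to the lists. The size of the move in the lists was not compared with that over all genes.

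Signal carriers downstream of the receptor (31 tested) had 12 genes above 0 and 19 below, and the median of their log2 fold changes was -0.12. Without NcoR1ΔHep 1 there were 13 above 0 and 18 below, with a median of -0.049. The kinase gene Sgk1, a PI3-kinase-dependent relative of AKT, was at 4.15, 3.61 and 5.44 FPKM across flox and at 7.35, 6.63 and 10.96 FPKM in NcoR1ΔHep. The Sgk1 groups did not overlap, and the log2 fold change was 0.96 (SE 0.30, edgeR adjusted p = 0.931), or 0.61 without NcoR1ΔHep 3. Rptor, which encodes the raptor subunit of mTORC1, averaged 3.03 ± 0.535 FPKM over the flox and 2.07 ± 0.283 FPKM over the NcoR1ΔHep libraries (-0.52 on the log2 scale, SE 0.19, edgeR adjusted p = 0.931). Ptpn11, which encodes the phosphatase SHP2, was at 9.60 ± 2.25 and 6.17 ± 1.14 FPKM (-0.60, SE 0.23, edgeR adjusted p = 0.931). For Rptor and Ptpn11, as for Sgk1, the groups did not overlap. Mlst8, another mTOR complex subunit, had a log2 fold change of -0.54 (SE 0.31) with overlapping groups. The list's most abundant transcripts per kilobase were Rheb (27.5 ± 1.57 FPKM in flox and 28.4 ± 3.50 in NcoR1ΔHep), Eif4ebp1 (25.4 ± 6.19 and 26.4 ± 7.20), Gsk3a (16.1 ± 1.72 and 17.5 ± 4.89) and Grb2 (15.3 ± 1.90 and 12.7 ± 1.49).

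The list of inhibitors and clearance factors of insulin signalling (18 tested) also names genes that are neither, such as Ppp1r3b, Ppp1r3c and Sh2b1. It had 7 genes above 0 and 11 below, with a median of -0.23, or -0.11 without NcoR1ΔHep 1. Ptprf, which encodes the receptor phosphatase LAR, was at 15.6, 12.5 and 10.3 FPKM across flox and at 4.30, 10.1 and 5.63 FPKM in NcoR1ΔHep. Its groups were apart by a narrow margin between flox 3 and NcoR1ΔHep 2 (log2 fold change -0.91, SE 0.33, edgeR adjusted p = 0.931), and without NcoR1ΔHep 1 the value was -0.63. Ide, which encodes the insulin-degrading enzyme, had -0.38 (SE 0.23), Deptor, an mTOR inhibitor, had -0.51 (SE 0.30), and Ppp1r3c, a glycogen-targeting phosphatase subunit, had -1.20 (SE 0.73). Without NcoR1ΔHep 1, Ide was at -0.20 and Deptor at -0.28, and without NcoR1ΔHep 3 Deptor was at -0.83. Ppp1r3c was at -0.78 without flox 2, -0.77 without NcoR1ΔHep 2 and -2.34 without NcoR1ΔHep 3. Ceacam1, which promotes insulin clearance, was at 43.3, 43.1 and 36.5 FPKM across flox and at 17.6, 34.98 and 37.3 FPKM in NcoR1ΔHep, the low value being that of NcoR1ΔHep 1. Ppp1r3b was at 39.8 ± 9.80 and 33.7 ± 10.9 FPKM, and Grb14, an inhibitor of the receptor kinase, at 23.97 ± 2.201 and 24.01 ± 2.15 FPKM.

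The growth hormone and IGF genes beside the 10 (14 tested) had 6 above 0 and 8 below, with a median of -0.20, or 0.05 without NcoR1ΔHep 1. That library is the one that stood apart in sex-biased liver genes, many of which are known to follow the pattern of growth hormone release, and the part of this in the values below was not tested. Cish, a feedback gene that STAT5 induces, was at 8.98, 1.62 and 8.30 FPKM across flox and at 1.97, 13.5 and 0.468 FPKM across NcoR1ΔHep. The 3 libraries high in Cish were the 3 that were high in Igfbp1 and low in Igf1. Ghr, the growth hormone receptor, was at 143, 195 and 105 FPKM across flox and at 96.7, 104 and 229 FPKM in NcoR1ΔHep, highest in flox 2 and NcoR1ΔHep 3, as Insr was. Socs2, another STAT5 target, was at 6.15, 2.75 and 2.16 FPKM across flox and at 4.02 FPKM in NcoR1ΔHep 2, with 1.85 and 0.709 FPKM in the other two. Its fold change was -0.72 (SE 0.57), with -0.25 without flox 1, -1.51 without NcoR1ΔHep 2 and -0.33 without NcoR1ΔHep 3. Stat5b itself had -0.49 (SE 0.23), and Igf2r, the receptor that clears IGF-2, had -0.48 (SE 0.24) with groups apart, or -0.27 without NcoR1ΔHep 1. Igfbp7 averaged 57.5 ± 13.1 FPKM over flox and 59.6 ± 16.02 over NcoR1ΔHep. The receptor gene Igf1r was barely present, at 0.0578 to 0.125 FPKM over the 6 libraries. Igfbp5 was low, at 0.479 ± 0.0776 and 0.744 ± 0.515 FPKM, and its fold change of 0.63 (SE 0.54) on the log2 scale became 0.15 when NcoR1ΔHep 1 was left out.

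Genes known to rise in fasting (25 tested) had 13 above 0 and 12 below, with a median of 0.02. Without NcoR1ΔHep 1 this turned to 11 above and 14 below, with a median of -0.023. Tat, the tyrosine aminotransferase of amino acid breakdown, was at 217, 205 and 291 FPKM across flox and at 436, 326 and 413 FPKM in NcoR1ΔHep, with no overlap (log2 fold change 0.74, SE 0.27, edgeR adjusted p = 0.931). Sesn3, a FOXO target, was at 4.69, 3.14 and 0.902 FPKM across flox and at 0.532, 1.44 and 1.09 FPKM in NcoR1ΔHep, and Insig2, which retains SREBP in the endoplasmic reticulum, at 71.6, 57.0 and 21.6 FPKM across flox and at 10.4, 19.6 and 30.2 FPKM in NcoR1ΔHep. For Sesn3 and Insig2 flox 1 and flox 2 were high, while flox 3 lay among the NcoR1ΔHep values (log2 fold changes -1.44, SE 0.60, and -1.24, SE 0.53, edgeR adjusted p = 0.931 for both). Sds, the serine dehydratase, had 0.61 (SE 0.32), and 0.28 without NcoR1ΔHep 1. The gluconeogenic gene Pck1 averaged 720 ± 131 FPKM over flox and 748 ± 55.5 over NcoR1ΔHep, and Fbp1 was at 542 ± 76.4 and 389 ± 154. Pck1 did not share the wide range of Igfbp1, with 572 to 817 FPKM over the 6 libraries.

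Genes known to rise with insulin (17 tested) had 15 above 0 and 2 below, with a median of 0.42 beside 0.03 for all tested genes. None had an unadjusted edgeR p under 0.05 and none was called. Without NcoR1ΔHep 1 the list had 11 above 0 and 6 below, with a median of 0.23. Srebf1, the lipogenic master regulator, was at 21.5, 15.3 and 58.1 FPKM across flox and at 67.2, 54.2 and 49.2 FPKM in NcoR1ΔHep, with flox 3 at the NcoR1ΔHep level (log2 fold change 0.85, SE 0.47, edgeR adjusted p = 0.931). Srebf1 was at 0.54 without flox 2 and 1.67 without flox 3. Acly had 0.42 (SE 0.25), or 0.25 without NcoR1ΔHep 2, and Pnpla3 had 2.38 (SE 1.23), or 0.35 without NcoR1ΔHep 1. The abundant members were Scd1 at 2347 ± 336 FPKM in the flox group and 2429 ± 529 in the NcoR1ΔHep group, Thrsp at 547 ± 635 and 1017 ± 611 FPKM, Insig1 at 110 ± 31.3 and 149 ± 70.5, and Pklr at 101 ± 41.7 and 116 ± 41.0.

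**Figure D5:**
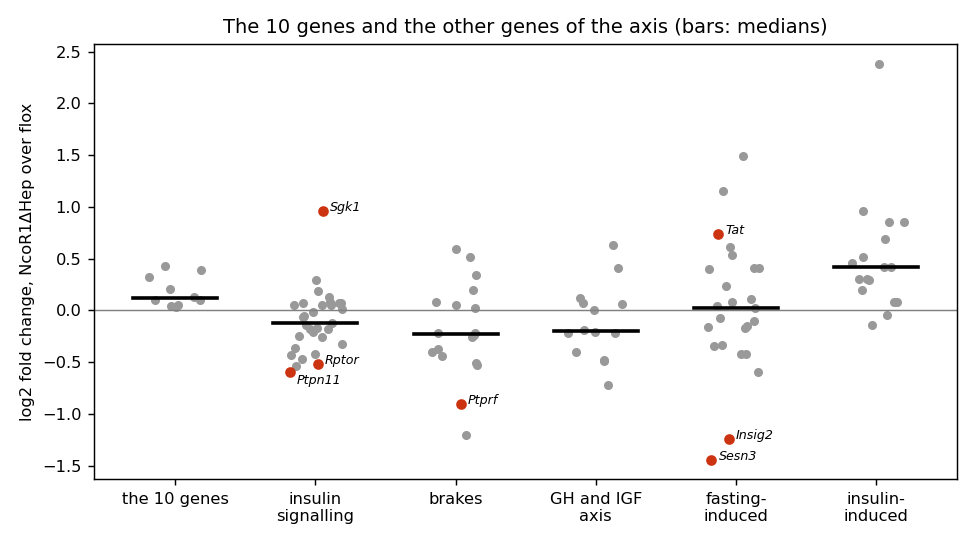
Log2 fold change of NcoR1ΔHep over flox by edgeR (vertical axis) for the 10 genes and for the 5 lists of other axis genes (horizontal axis), 1 point per tested gene, with bars at the medians. Red points with names had an unadjusted p under 0.05 (7 genes, none after adjustment), and none of the 10 genes is among them.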

How the data were processed

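Liver RNA of 3 flox and 3 NcoR1ΔHep libraries was analysed. The authors deposited whole-number read counts per gene symbol, without normalization, and FPKM values for the same genes. Each deposited FPKM was a count scaled by one length per gene and the library total: the implied length was equal over libraries within a relative tolerance of 0.001 in 100% of 12656 genes. Per the submitters' processing notes, the builds were GRCm38, mm10 and hg38, with no role given. The sources used here name no aligner, counter or strand setting.

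Genes were filtered with edgeR's filterByExpr (minimum count 10, minimum total 15) and scaled by TMM. In R 4.3.3, edgeR 4.0.16 then tested the genotype by quasi-likelihood (glmQLFTest, two-sided). The p-values were adjusted by Benjamini and Hochberg's method over all tested genes, with calls at 0.05. SEs come from the F statistic. Of each list, the 4 genes with the smallest p and the 4 with the highest mean FPKM are named, and other genes were named by likeness to a member. Some genes that this rule takes are not reported here. Members and lists were chosen with earlier results of these data known. The fit was tested on simulated data.

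Alternatives were DESeq2 1.42.0, other scalings and filters, limma-voom (limma 3.58.1), limma on FPKM, the replicate number as a block, and each library left out.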

Additional observations from a re-analysis of the deposited data

How the results depend on the processing

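No gene was called by edgeR under any scaling, filter, block or left-out library, nor by limma, while DESeq2 called 5 genes, with 0 of them among the 10 or the 5 lists. The count of members above 0 was 6 with limma-voom, with each of the 3 limma fits on FPKM (pseudocount 1, pseudocount 0.1, no filter) and with the replicate block, and ran from 6 to 9 with a library left out. Members with an unadjusted p under 0.05 ran from 0 to 1 and genes of the 5 lists from 0 to 16 with a library left out, against 7 with all libraries. Over all genes that share ran from 0.742% to 6.79%, against 3.35%.

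Directions near 0 turned as follows. For Insr the log2 fold change was -0.0113 with total counts only, -0.00927 with limma-voom, -0.0290, -0.0320 and -0.0290 in the limma fits on FPKM and -0.0194 with the replicate block, and ran from -0.40 to 0.30 with a library left out. For Irs2 it was -0.0318 with limma-voom, -0.0175, -0.0486 and -0.0175 in the fits on FPKM and -0.0496 with the block, and ran from -0.45 to 0.42. For Igfbp1 it was -0.0781 with limma-voom, -0.10 in the fits on FPKM and -0.15 with the block, and ran from -0.88 to 0.60. For Igfbp3 it was -0.0027 with total counts only, -0.0276 with limma-voom, -0.0414, -0.0491 and -0.0414 in the fits on FPKM and -0.0255 with the block, and ran from -0.33 to 0.34. With a library left out, Foxo1 ran from -0.0710 to 0.28 and Igfals from -0.11 to 0.16. Irs1, Igf1, Igfbp2 and Igfbp4 stayed above 0 in all alternatives run. The cause was not tested.

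Replicate numbers gave no sign of pairing the libraries, though so few libraries cannot exclude it. Deviations from the group means, over genes, correlated at 0.02, -0.38 and -0.52 between same-numbered libraries, and no library went best with its own number. The replicate block left 0 genes called and 3 list genes with an unadjusted p under 0.05, where 1.33% of all genes had one. With 3 libraries a group, a doubling of Igfbp1, Irs1, Irs2 or Igf1 lay within the 95% interval.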
